A study of Mus musculus with 4 samples.

Results

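The genes described here mark bile duct epithelium, liver progenitor cells and simple epithelia, and were followed in Hepa1-6 cells, a mouse hepatoma line, after knockdown of Chd1, a chromatin remodeling ATPase. The 9 genes were listed by name and taken from 23521 genes, after the deposited transcript values of each gene were summed. They were Spp1, Sox9, Epcam, Krt7, Krt19, Krt8, Krt18, Prom1 and Cd24a, and each was present in the table. The Control group (2 libraries, genotype given as wild type) received a lentivirus with a scrambled shRNA, and the Chd1KD group (2 libraries) a lentivirus with an shRNA against Chd1. All 4 samples came from cells held in puromycin at 4 μg/ml for 3 weeks, so both groups are drug-selected populations of 1 cell line. Poly(A) RNA was sequenced, and values are RPKM, which scale reads to transcript length and to library size. Whether replicate libraries trace back to independent transductions is not stated. The p-values below set the group difference only against the spread between libraries of a group. For each gene, limma moderates this spread toward a trend over all tested genes, and the spread may be technical.

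In the liver, bile ducts are lined by cholangiocytes, which share a progenitor with hepatocytes. SOX9 is the transcription factor that marks the ductal lineage, and osteopontin (Spp1), the adhesion protein EpCAM and the keratins 7 and 19 are read as ductal or progenitor markers. Keratin filaments form from pairs of a type II and a type I chain: hepatocytes hold only the pair of keratin 8 (type II) and keratin 18 (type I), whereas cholangiocytes add keratin 7 (type II) and keratin 19 (type I). Prominin-1 (Prom1) and CD24 are membrane proteins used to isolate progenitor and tumour-initiating cells.

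The targeted gene and the sample type were checked first. Chd1 (chromosome 17, 15704967 to 15772612, mm10) measured 21.4 and 22.5 RPKM in the controls against 10.4 and 11.3 RPKM after knockdown, a log2 fold change of -0.96 (SE 0.07, limma, adjusted p = 0.012). Of the 10209 genes tested, 47 were called at an adjusted p under 0.05, which is 0.46%. Summed RPKM lay between 459381 and 484490 in the 4 libraries. Of 14 hepatocyte markers, 11 reached a mean of 1 RPKM. Albumin (Alb) had 18.6 and 55.6 RPKM in the controls against 42.2 and 53.02 RPKM after knockdown. Transthyretin (Ttr) and Serpina1a, defining hepatocyte genes, were listed at 0 in every library. The summed level of the 14 hepatocyte markers was 1467 to 2341 RPKM in Control and 1046 to 1376 RPKM in Chd1KD, most of it Apoe. Of 8 lymphocyte markers, all 8 were listed at 0. The defining macrophage gene Adgre1, the endothelial genes Cdh5 and Kdr and the stellate cell gene Lrat were also listed at 0. The 7 matched macrophage markers summed to 7.6 to 8.95 RPKM in Control and 7.34 to 7.46 RPKM in Chd1KD, almost all of it Cd14. The 8 endothelial markers summed to 2.57 to 4.09 RPKM in Control and 1.73 to 2.17 RPKM in Chd1KD, almost all of it Egfl7. The 11 mesenchymal markers summed to 386.7 to 431.3 RPKM in Control and 386.96 to 394.5 RPKM in Chd1KD, almost all of it Dcn. Without Apoe the hepatocyte sums were 245 and 319 RPKM in the controls and 261 and 295 RPKM after knockdown, which overlap. Of the 11 tested hepatocyte markers 8 had a negative fold change (56.5% in the background of tested genes), with a median of -0.16. Lower expression at an unadjusted p under 0.05 was seen for 6 of the 11 (limma), against a background share of 11.3%. Higher expression at that limit was seen for 1, against 7.24%. It was the fetal gene Afp (limma, adjusted p = 0.077). Afp had 29.9 and 39.7 RPKM in the controls against 55.2 and 58.3 RPKM after knockdown. No hepatocyte marker was called at an adjusted p under 0.05. The part of other cell types' markers in the values below was not tested. In a bulk library, fewer cells of a type and less RNA per cell cannot be told apart.

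The upstream sequence of 5 of the markers is shown to place the genes that follow. RefSeq (GRCm38.p6) start-site windows were found for Spp1, Krt7, Krt8, Krt18, Epcam and Prom1. Sox9, Krt19 and Cd24a had none in the table used. For the 5 expressed ones, the 100 bases before the annotated start are given 5′ to 3′ on the gene's strand. Capitals mark a TATA-like string on the gene's strand (ATAAAA), the string bound by SP1 on either strand (GGGCGG, or its reverse complement) and the CCAAT box on either strand (CCAAT, or its reverse complement).
Krt7, chr15:101412303-101412402, plus strand: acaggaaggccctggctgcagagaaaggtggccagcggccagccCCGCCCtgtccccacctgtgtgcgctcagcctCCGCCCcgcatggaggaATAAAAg
Epcam, chr17:87635879-87635978, plus strand: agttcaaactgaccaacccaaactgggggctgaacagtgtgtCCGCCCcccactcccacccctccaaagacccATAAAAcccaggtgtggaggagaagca
Spp1, chr5:104435011-104435110, plus strand: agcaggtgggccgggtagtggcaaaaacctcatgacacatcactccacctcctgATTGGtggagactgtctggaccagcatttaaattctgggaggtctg
Krt18, chr15:102028116-102028215, plus strand: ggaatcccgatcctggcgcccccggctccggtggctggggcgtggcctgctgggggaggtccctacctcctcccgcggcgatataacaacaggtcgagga
Krt8, chr15:102004343-102004442, minus strand: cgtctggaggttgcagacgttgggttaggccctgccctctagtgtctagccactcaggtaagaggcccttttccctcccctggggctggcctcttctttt
Within the 250 bases before the start, Krt7 and Epcam both held the TATA-like and the SP1 string. Of 32851 RefSeq start-site windows of the same length, 10.2% held the TATA-like string, 32.7% the SP1 string and 33.8% the CCAAT box. Krt8 and Krt18 held none of these 3 strings. The canonical TATA string on the gene's strand (TATAAA, which can overlap the TATA-like one) was in 7.59% of windows and among the 5 genes only in Spp1. There it lay at bases -211 to -206 from the start, outside the 100 bases printed. A further annotated start of Spp1, not printed, did not have this string in its window. The AP-1 string on either strand (TGANTCA) was in 6.75% of windows and in none of the 5 genes. The SOX string on either strand (ACAAAG) was in 16.5% of windows, and among these genes in Spp1 and Krt18. These are matches of letters, not binding data.

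**Figure D1:**
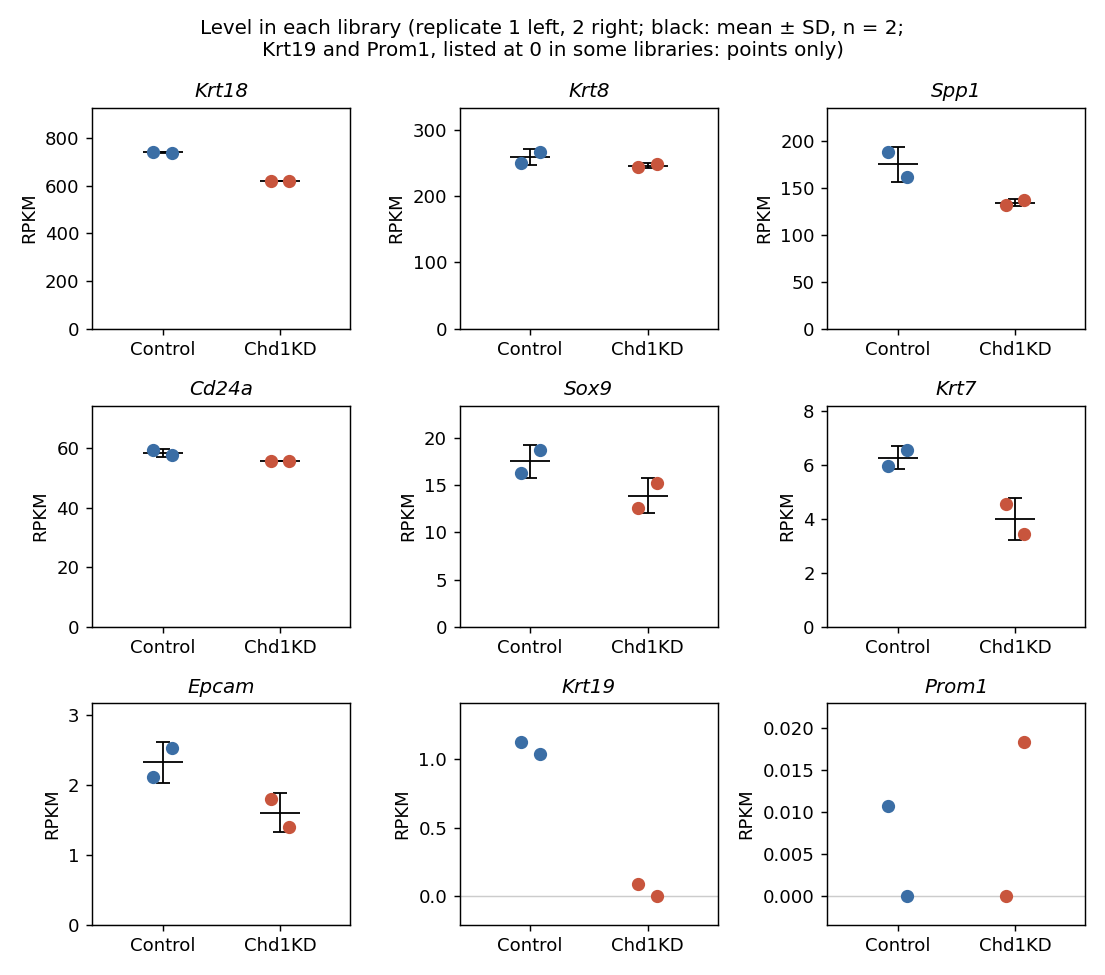
RPKM of each marker (vertical axis) in the 2 Control and the 2 Chd1KD libraries, 1 panel per gene in order of level, with linear axes of different range. Points are libraries, and the black mark and bar are the mean ± SD of 2 libraries; Krt19 and Prom1, listed at 0 in some libraries, have points only. Krt19 lies at 1.13 and 1.04 RPKM in Control against 0.0853 RPKM and a listed 0 in Chd1KD, while Krt8 and Cd24a differ little.

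The markers spanned a wide range of levels. Krt18 was the most abundant at a mean of 681 RPKM over the 4 libraries, higher than 98.9% of tested genes. It was followed by Krt8 (252 RPKM), Spp1 (155 RPKM), Cd24a (57.1 RPKM), Sox9 (15.7 RPKM), Krt7 (5.14 RPKM), Epcam (1.96 RPKM), Krt19 (0.56 RPKM) and Prom1 (0.0073 RPKM). Neighbours in this order did not overlap in any library, except Krt19 and Prom1. Krt19 and Prom1 had means under the 1 RPKM that a gene needed to be tested, which left 7 of the 9 in the test across all genes.

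The chains of the hepatocyte keratin pair differed in listed level, and the difference between their fold changes was not tested. Krt18 (chromosome 15, 102028216 to 102032026) measured 743 and 738 RPKM in the controls against 621 and 622 RPKM after knockdown. The Control libraries were both higher, and each group was tight. Group means were 740.3 ± 3.8 and 621.3 ± 0.58 RPKM (± SD, 2 libraries a group), 83.9% of Control. The log2 fold change on log2(RPKM + 1) was -0.25 (SE 0.06, 95% interval -0.39 to -0.12). The gene did not pass over all genes (limma, adjusted p = 0.107). Krt8, its type II partner (chromosome 15, 101996711 to 102004342), lies 23.9 kb from Krt18. It measured 250 and 267 RPKM in the controls against 243.3 and 248.9 RPKM after knockdown. The groups nearly touched, with the lowest Control library at 249.9 RPKM and the highest Chd1KD library at 248.9 RPKM. The log2 fold change of Krt8 was -0.07, with a 95% interval from -0.21 to 0.07 (limma, adjusted p = 0.57), so a fall to 0.86 of Control was still inside the interval. The ratio of Krt8 to Krt18 was 0.336 and 0.362 in Control and 0.392 and 0.40 in Chd1KD, higher in both knockdown libraries. With 2 libraries a group an exact permutation test of this ratio cannot reach 0.05, and none was run. Both chains have a related pseudogene that is not in the table: Krt8-ps matches Krt8 at 98.6% over 941 bases, and Gm5200 matches Krt18 at 90.5% over 1267 bases. Reads of these copies could add to or be lost from the values of Krt8 and Krt18.

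The ductal keratins were scarce, and their values after knockdown lay below those of both controls. Krt7 (chromosome 15, 101412403 to 101427806) measured 5.98 and 6.58 RPKM in the controls against 4.56 and 3.45 RPKM after knockdown. Both Chd1KD libraries lay below both Control libraries, and the knockdown libraries differed more from each other than the controls did. The mean was 63.9% of Control and the log2 fold change -0.55 (SE 0.12, 95% interval -0.83 to -0.26), and the gene did not pass over all genes (limma, adjusted p = 0.104). Leaving out 1 library moved it between -0.71 (without Chd1KD replicate 1, limma, adjusted p = 0.022) and -0.39 (without Chd1KD replicate 2, adjusted p = 0.192). Krt7 passed in 1 of 16 fits, and in that fit the lone Chd1KD library is assumed to vary like the Control libraries. The ratio of Krt7 to the abundant type II keratin Krt8 was 0.024 and 0.025 in Control and 0.019 and 0.014 in Chd1KD.

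Krt19, the type I partner of Krt7 in duct cells (chromosome 11, 100140810 to 100145926), had the lowest share of its Control level among the markers. It measured 1.13 and 1.04 RPKM in Control, 0.0853 RPKM in Chd1KD replicate 1, and was listed at 0 in Chd1KD replicate 2. A listed 0 in these tables need not mean absence, since 10 genes averaging 5 RPKM or more are at 0 in some library, but the other knockdown library was also far below both controls. Among 10090 genes with at least 1 RPKM in both Control libraries, Krt19 was the only one under 0.1 RPKM in both Chd1KD libraries. Of 10071 genes with at least 1 RPKM in both Chd1KD libraries, 0 were under 0.1 RPKM in both Control libraries. These limits were chosen after the values of Krt19 were seen, and Krt19 enters the count only through its Control values. That Krt19 met them was therefore fixed, and both counts are a description, not a test. Krt19 was outside the main test because its mean over the 4 libraries was 0.56 RPKM. With no filter its log2 fold change was -1.0 and did not pass (limma, adjusted p = 0.25), and at that setting 0 of 13783 genes were called in either direction, Chd1 included, where 2153 had an unadjusted p under 0.05. On the log2(RPKM + 1) scale the change of a gene at this level is understated.

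Spp1 encodes osteopontin, a secreted phosphoprotein that binds integrins and CD44. The gene (chromosome 5, 104435111 to 104441053) measured 189 and 162 RPKM in the controls against 132 and 137 RPKM after knockdown. The groups did not overlap, although the Control libraries differed from each other by 0.22 on the log2 scale. Group means were 175.3 ± 19.2 and 134.4 ± 3.6 RPKM (± SD, 2 libraries a group), 76.7% of Control, with a log2 fold change of -0.38 (SE 0.08, limma, adjusted p = 0.104). Leaving out 1 library moved it between -0.49 (without Control replicate 2, limma, adjusted p = 0.013) and -0.27 (without Control replicate 1, adjusted p = 0.072), and the adjusted p was 0.294 without Chd1KD replicate 1. Spp1 also passed in 1 of 16 fits, where the lone Control library is assumed to vary like the Chd1KD libraries. Spp1 has 5 transcript rows, and 1 of them carried 95.4% to 96.9% of the gene in each library. The second transcript measured 7.94 and 7.16 RPKM in the controls against 4.0 and 4.61 RPKM after knockdown, and 2 rows were listed at 0 throughout.

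Sox9, the ductal transcription factor (chromosome 11, 112782210 to 112787757), measured 16.3 and 18.8 RPKM in the controls against 12.6 and 15.2 RPKM after knockdown. The groups did not overlap, but the highest Chd1KD library came close to the lowest Control library. The mean was 79.3% of Control, and the log2 fold change of -0.32 (SE 0.10, 95% interval -0.57 to -0.07) did not pass over all genes (limma, adjusted p = 0.189). Leaving out 1 library moved it between -0.19 (without Chd1KD replicate 1) and -0.44 (without Chd1KD replicate 2), and it was -0.22 without Control replicate 2. Epcam (chromosome 17, 87635979 to 87651127), the homophilic adhesion protein, was near the test's lower limit. It measured 2.11 and 2.53 RPKM in the controls against 1.79 and 1.4 RPKM after knockdown, 68.9% of Control. Both knockdown libraries were lower, and the differences between the 4 pairs across groups ran from -0.56 to -0.15 on the log2 scale. The log2 fold change was -0.36 (SE 0.12, limma, adjusted p = 0.199). Without Chd1KD replicate 2 or Control replicate 2 it was weaker, to -0.25 at the smallest.

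The membrane markers of progenitors gave no difference that the test could call. Cd24a, a small glycosylphosphatidylinositol-anchored sialoprotein (chromosome 10, 43579169 to 43584265), measured 59.4 and 57.5 RPKM in the controls against 55.8 and 55.7 RPKM after knockdown. Both Chd1KD libraries were slightly lower, at 95.4% of Control. The 95% interval of the log2 fold change of Cd24a ran from -0.20 to 0.06 (limma, adjusted p = 0.55). Prom1 (chromosome 5, 43993621 to 44102047) was listed at 0.011 RPKM in Control replicate 1, at 0.018 RPKM in Chd1KD replicate 2 and at 0 in the other libraries, over 8 transcript rows. The level was too low for a comparison.

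Set side by side, the 7 tested markers all had negative fold changes, and none of them passed over all genes. A call toward lower expression was made for 0.186% of all tested genes. The median log2 fold change of the 7 was -0.32, against -0.02 over all 10209 tested genes, of which 56.5% had a negative fold change. The 2 groups of libraries did not overlap, with Chd1KD lower, for all 7, and for 30.5% of all tested genes (51.8% in either direction, 21.3% with Chd1KD higher). An unadjusted p under 0.05 with a negative fold change was reached by 5 of the 7 (Krt7, Spp1, Krt18, Sox9 and Epcam) and by 11.3% of all tested genes (18.5% in either direction, 7.24% with a positive fold change). The same limit, with lower expression, was met by 6 of the 11 tested hepatocyte markers, and no test compared these lists. Because the markers were listed with earlier results of these libraries known, these counts are descriptive. Krt7 had the most negative fold change of the 7, and Krt8 and Cd24a the smallest, on this scale and with a pseudocount of 0.1. The order of the markers between them depends on the pseudocount: Epcam was at -0.36 against -0.38 for Spp1 here, and at -0.52 against -0.38 with 0.1.

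**Figure D2:**
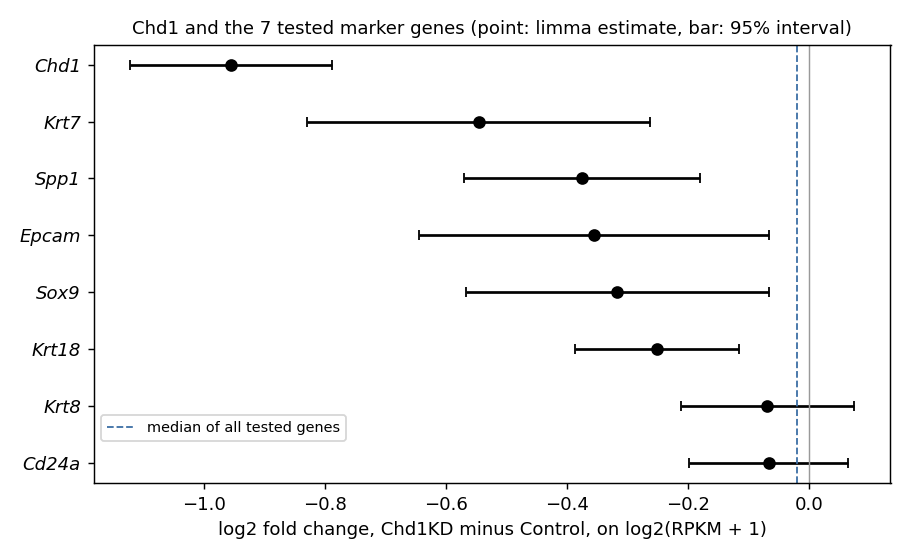
Log2 fold change of Chd1KD minus Control on log2(RPKM + 1) (horizontal axis) for Chd1 and the 7 tested markers. Points are limma estimates, bars are 95% intervals, and the dashed line is the median of all tested genes (-0.02). The intervals of Krt8 and Cd24a include 0, and those of the other 5 markers lie below it.

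Other biliary genes did not share 1 direction. Of 26 listed, 19 were tested, 13 of them with a negative fold change (8 without Control replicate 2), and the median was -0.07. None passed over all genes (limma). At an unadjusted p under 0.05, 3 were lower and 2 higher, against 11.3% and 7.24% of all tested genes. Elf3, an epithelial ETS factor, had 4.07 and 3.49 RPKM in the controls against 2.73 and 2.52 RPKM after knockdown. Tff3, a secreted trefoil peptide, had 22.3 and 27.8 against 19.8 and 14.9 RPKM, and Slc4a2, an anion exchanger, 19.5 and 19.7 against 16.3 and 17.5 RPKM. Dcdc2a, a ciliary doublecortin protein, was the opposite case, with 0.94 and 1.13 RPKM in the controls against 2.15 and 1.93 RPKM after knockdown (limma, adjusted p = 0.085). The abundant biliary genes Itga3, a laminin receptor chain, and Anxa4, an annexin, overlapped between groups. Sctr, Ggt1 and Krt23, all made by cholangiocytes, were listed at 0 in every library.

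Of 18 other progenitor genes, 8 were tested and all 8 had fold changes below 0 (median -0.14), as did 56.5% of all tested genes. The count was 6 with the libraries scaled to one sum and 6 without Control replicate 2. None passed over all genes (limma), and 2 were lower at an unadjusted p under 0.05, against 11.3% of all tested genes. Lgr5, the R-spondin receptor that marks stem cells of several epithelia, measured 11.99 and 14.95 RPKM in the controls against 8.61 and 9.37 RPKM after knockdown (66.7% of Control by the means, limma, adjusted p = 0.096). Axin2, a feedback target of WNT signalling, measured 87.5 and 84.6 against 75.6 and 71.9 RPKM. The remaining pair of genes with the smallest p, Foxm1 and Itga6, and the abundant Tnfrsf12a and Cd9 had log2 fold changes from -0.19 to -0.12. Of the 10 untested genes 9 were listed at 0 in every library.

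The keratin family beyond the markers was mostly at 0. Of 33 other keratins listed, 4 were tested, with 2 fold changes below 0, 2 above it and a median of 0.01. Of 50 other Krt genes in the table, 34 were listed at 0 in every library. Krt8 and Krt18 made up 91.2% to 93.1% of the summed keratin RPKM of each library, and Krt20, an intestinal keratin, came next at 56.6 and 62.7 RPKM in the controls against 60.02 and 71.9 RPKM after knockdown. Krt14, the type I keratin of basal epithelia, measured 3.77 and 3.22 RPKM in the controls against 1.89 and 1.29 RPKM after knockdown, 45.6% of Control (log2 fold change -0.80, SE 0.14, limma, adjusted p = 0.073). Its usual type II partner Krt5 was higher in both knockdown libraries, at 3.41 and 3.97 against 4.73 and 4.44 RPKM (limma, adjusted p = 0.22). Krt10 had 1.72 and 1.99 against 1.77 and 1.47 RPKM.

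**Figure D3:**
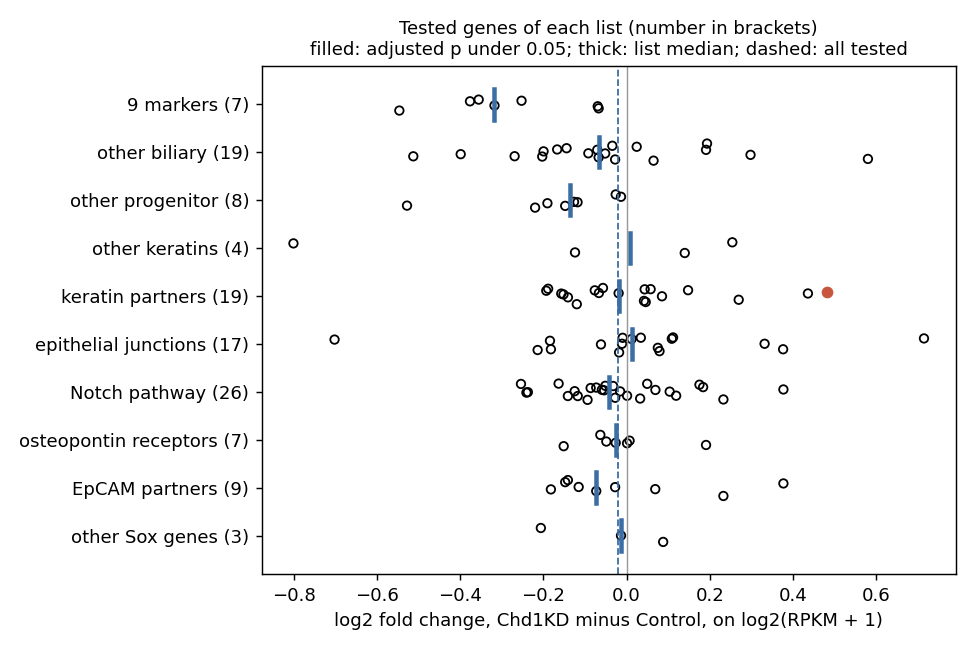
Log2 fold changes of Chd1KD minus Control on log2(RPKM + 1) (horizontal axis) for the tested genes of 10 lists, with the number tested in brackets. Each circle is a gene, a filled circle is a gene called at an adjusted p under 0.05 (Dsg2), thick bars are list medians and the dashed line is the median of all tested genes (-0.02). The 7 markers lie wholly below 0, as do the 8 tested other progenitor genes, while junction and keratin partner genes lie on both sides.

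Proteins that anchor keratin filaments were split. Of 23 keratin partners, 19 were tested, 10 with a negative fold change, and the median was -0.02. Dsg2, a desmosomal cadherin, rose from 6.33 and 6.52 RPKM to 9.40 and 9.36 RPKM. The difference was 0.48 on the log2 scale (limma, SE 0.07, adjusted p = 0.049). The call is marginal: it was lost without Control replicate 1 (limma, adjusted p = 0.054), without Chd1KD replicate 1 (0.114) and without Chd1KD replicate 2 (0.063). Over all alternatives its adjusted p from limma ran from 0.027 to 0.25. A call toward higher expression was made for 0.274% of all tested genes. Dsc2, the desmocollin that pairs with it, had 1.22 and 1.61 RPKM in the controls against 2.53 and 2.0 RPKM after knockdown (limma, adjusted p = 0.161). Vim and Lmna, intermediate filament genes of mesenchymal cells and of the nuclear lamina, had 87.7% and 87.4% of Control. The 14-3-3 genes Ywhae and Ywhaz, whose products bind keratin 18, overlapped between groups.

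Epithelial junction genes also went both ways. Of 30 listed, 17 were tested, 8 with a negative fold change (5 with the libraries scaled to one sum), and none passed over all genes (limma). Cldn4, a claudin of tight junctions, had 5.72 and 6.48 RPKM in the controls against 9.70 and 11.7 RPKM after knockdown (log2 fold change 0.72, limma, adjusted p = 0.0506). Cldn2, a pore-forming claudin, had 2.62 and 3.53 against 1.487 and 1.493 RPKM (log2 fold change -0.70, limma, adjusted p = 0.080). Cldn12 and Esrp2, an epithelial splicing regulator, were higher in both knockdown libraries, at 1.29 and 1.36 times Control (limma, adjusted p = 0.103 and 0.104). Cdh1, which encodes E-cadherin, stayed between 0.035 and 0.064 RPKM, so it could not be compared. Cldn7, a binding partner of EpCAM, was listed at 0.

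Genes that act on or with the markers are given by role. Of 34 Notch pathway genes, which direct the ductal fate and act above Sox9, 26 were tested, 16 with a negative fold change, and the median was -0.04. The ligand Jag1 had 69.5 and 71.1 RPKM in the controls against 68.3 and 72.6 RPKM after knockdown. Psen2, a presenilin of the gamma-secretase that cuts Notch and EpCAM, was higher in both Chd1KD libraries, at 1.38 times Control. Dtx2 and Pofut1, a Notch-binding ubiquitin ligase and a Notch fucosyltransferase, were lower at 0.83 times Control each. None of these passed (limma, adjusted p = 0.104 to 0.188 for the 3 with a difference). Of 10 osteopontin receptor genes 7 were tested and 0 had an unadjusted p under 0.05 (limma), where the abundant Itgb1 and Cd44 had ratios of 1.0 and 0.98. Of 14 EpCAM partners 9 were tested with a median of -0.07, and beta-catenin (Ctnnb1) had 188 and 178 RPKM in the controls against 161 and 162 RPKM after knockdown (limma, adjusted p = 0.177). Of 18 other Sox genes 3 were tested, and Sox4, Sox12 and Sox13 had log2 fold changes of 0.09, -0.01 and -0.21.

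Keratin genes lie in gene clusters, and the genes around the markers were read as a positional comparison, with a window reaching 250 kb to each side chosen after the values were seen. Around Krt19, in the type I cluster, 4 other genes were tested: Krt14, Eif1, Hap1 and Jup. All 4 had negative fold changes, as did 56.5% of all tested genes, from -0.80 to -0.16 with a median of -0.28. An unadjusted p under 0.05 with lower expression was reached by 3, and by 11.3% of all tested genes, while none passed over all genes (limma). Around Krt18, 7 other genes were tested, Krt8 among them. Of these 5 had negative fold changes, from -0.25 to 0.09 with a median of -0.06, and 0 had an unadjusted p under 0.05. Around Krt7, 4 genes were tested and all 4 were negative, with a median of -0.15 and 1 at an unadjusted p under 0.05. The difference between these neighbourhoods was not tested.

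**Figure D4:**
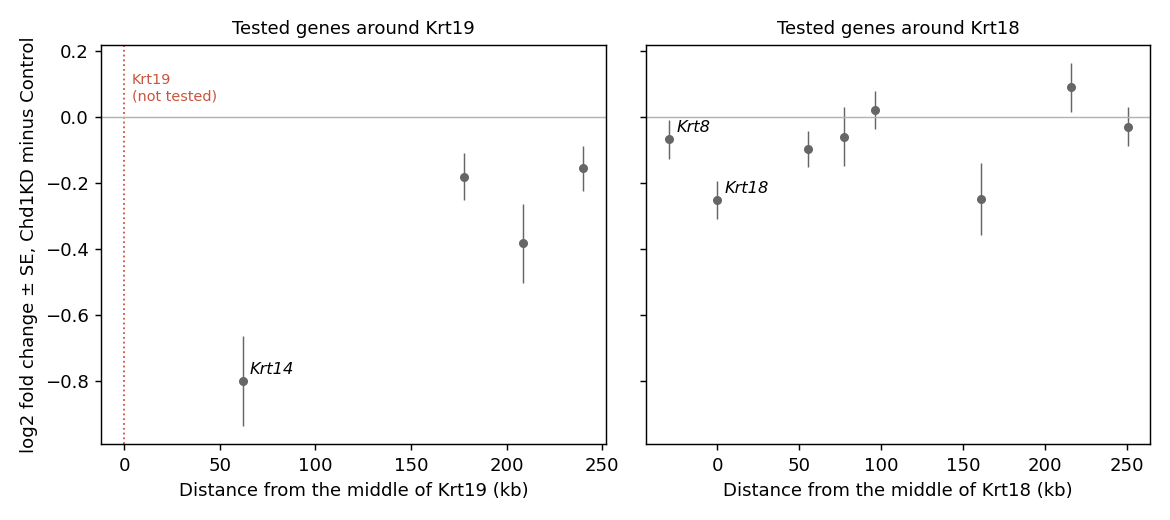
Log2 fold change ± SE of Chd1KD minus Control (vertical axis, limma) against distance in kb from the middle of Krt19 (left) and Krt18 (right), for tested genes that reach into the 250 kb to each side. Each point is a gene, keratins are named, and the dotted line marks Krt19, which was not in the main test. All 4 tested genes beside Krt19 lie below 0, while genes beside Krt18 lie on both sides. Around Krt7, which is not drawn, all 4 tested genes were also below 0.

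The tested genes closest to the markers' average pattern were found by distance between centred log2(RPKM + 1) values over the 4 libraries. The nearest 5 were Trub2, Miip, Arnt2, Sipa1l2 and Gmpr, with distances from 0.010 to 0.028 and log2 fold changes from -0.29 to -0.26. None of the 5 passed over all genes (limma, adjusted p = 0.121 to 0.215). Among the markers, Krt18 was the closest marker at 0.054 and Krt7 the farthest at 0.34, and 6396 other genes were nearer to the average than Krt7. Over only 4 libraries such likeness is a description of these libraries.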

How the data were processed

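Poly(A) RNA was measured in 2 Control and 2 Chd1KD libraries, and groups came from the sample titles. The authors deposited RPKM values for 30582 RefSeq transcript rows, per the file headers. TopHat 1.4.1, Cufflinks 1.3.0 and the build mm10 are listed, without their roles, per the submitters' processing notes. For annotation, strand setting and filters, the sources used here give nothing. Rows were named by the RefSeq table of GRCm38.p6 (30003 rows) or GENCODE M21 (180 rows), 399 rows stayed unnamed, and RPKM was summed per gene. Coordinates are 1-based. RPKM hold no counts and the depth is unknown: of 614 low transcripts only 54 to 58 shared 1 ratio between libraries (0.99), so relative depth is a weak estimate, and no counting interval is given.

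Genes averaging 1 RPKM or more were fitted with limma 3.58.1 (R 4.3.3) on log2(RPKM + 1) with a variance trend and no block, and p was Benjamini-Hochberg adjusted over all 10209 tested genes. The fit was tested on simulated data. Copies were searched with blastn 2.17.0 in GENCODE M21 transcripts (at least 90% over 300 bases). The 9 markers and the 14 lists (255 entries, 1 not matched) were chosen with earlier results of these data known. Named list genes were the 4 with the smallest p and the 2 most abundant of each list, besides Chd1, the markers and the 5 genes nearest to their mean profile; 1 gene that this rule names is not reported here. Sctr, Ggt1, Krt23, Cdh1, Cldn7, the marker genes of other cell types, and the genomic neighbours were named after their values were seen. Alternatives changed the pseudocount, filter, scaling, variance model, block, transcript choice and libraries. Figures were drawn with matplotlib 3.10.9.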

Additional observations from a re-analysis of the deposited data

How the results depend on the processing

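The number of genes called was 47 and depended strongly on the processing. With every gene kept it was 0 (limma, 2153 genes at an unadjusted p under 0.05). It was 71 with a filter at 5 RPKM, 95 with libraries scaled to one sum, 6 without a variance trend, 92 with a robust trend and 12 with the most abundant transcript. Leaving out 1 library gave 49 to 236 calls (140 or 236 when the first or second Control library was dropped, 122 for Chd1KD replicate 2). The causes were not tested. With the replicate number as a block there were 325 calls, and Sox9 passed with the same fold change (limma, adjusted p = 0.045). The labels state no pairing, and the 2 replicate differences correlated across genes at r = 0.22, which with only 2 pairs does not show pairing. Chd1 kept a log2 fold change of -0.96 without the filter but lost its call (limma, adjusted p = 0.25). The 7 tested markers stayed negative in each alternative that kept them in the test (6 of them at 5 RPKM). A filter at 0.5 RPKM, added after the data were seen, gave 55 calls. Krt19 passes it only through the Control libraries, so its value there is not used. Prom1, tested only without a filter, had a log2 fold change of 0.0054. Depth is unknown, and Krt19, Epcam and Prom1 sit where RPKM is least certain.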
